A study of Saccharomyces cerevisiae with 13 samples.

Results

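The strain ΔtH(GUG)G1 lacks a single nuclear gene for the histidine tRNA with the anticodon GUG, a tRNA that Saccharomyces cerevisiae encodes at several places in its genome. Its 2 arrays, of 13 in the series, were compared with the 3 wild-type arrays over all 5446 protein-coding genes assigned to a probe set. The arrays were chosen by strain label, with earlier results of these data known. The haploid strains carry the Y5565 background, which is MATα, has can1Δ::MFA1pr-HIS3 and mfα1Δ::MFα1pr-LEU2 as reporter insertions, and is deleted for lyp1Δ, ura3Δ0 and leu2Δ0, and all grew in rich medium (YPD) at 30°C to mid-log phase. In ΔtH(GUG)G1 the tRNA gene was exchanged for a hygromycin B resistance cassette (HPH) with a strain barcode, and the wild-type control holds the same marker upstream of another tRNA gene, tL(CAA)L3. The other 8 arrays come from ΔtM(CAU), ΔtR(CCU)J, ΔtL(GAG)G and ΔtR(UCU)M2, made in the same way, of which the study grouped ΔtR(UCU)M2 with ΔtH(GUG)G1 as the multi-copy (MC) strains. The labels call the arrays of a strain biological repeats, and whether the repeats came from separate clones was not stated.

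Transfer RNAs carry amino acids to the ribosome, and each is charged by its aminoacyl-tRNA synthetase. The histidine tRNA has only the anticodon GUG in the yeast nuclear genome, so this family reads both histidine codons. tRNA genes are transcribed by RNA polymerase III, and the transcripts are trimmed, modified and exported before use. Uncharged tRNA is known to activate the kinase Gcn2, and through the transcription factor Gcn4 it raises many amino acid biosynthesis genes. tRNA genes have no probe set on this array, so the loss of tH(GUG)G1 could not be read from the data, and what follows describes messenger RNAs.

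The deletion cassette was built in successive PCR steps, of which the gene-specific primers of 45 bases carry the homology to chromosome VII beside the tRNA gene. The barcodes of 20 bases are listed as separate sequences. The arms are shown because they set the ends of the replaced segment, and the capitals of the barcodes mark the bases that identify this strain.

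Up arm: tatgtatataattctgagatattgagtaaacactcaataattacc
Up barcode: ATAGTCCGGGAACTGTATGC
Down arm: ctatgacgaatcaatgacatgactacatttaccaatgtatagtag
Down barcode: AGATTACTCTAACGCCTCAG

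The deposited values are linear signals, 1 per probe set, with a trimmed mean of 500.2 to 500.3 on every array. All values below are log2 of these signals, and the difference of a gene is the mean of the 2 deletion arrays minus the mean of the 3 wild-type arrays on that scale. The median signal of the genes was 491 on deletion array 1, 552 on deletion array 2, and 512 to 536 on the wild-type arrays. Background was taken as the 95th percentile of probe sets for the yeast Schizosaccharomyces pombe, which share the array. It was 21.5 on deletion array 1, 12.9 on deletion array 2 and 15.0 to 20.6 on the wild-type arrays, and 96.5% and 97.4% of the genes exceeded it on deletion arrays 1 and 2. The genotype could be seen in all 5 arrays: CAN1, LYP1 and URA3 were at or below background on each of them, LEU2 read 12.96 to 13.33, and the α-factor gene MF(ALPHA)2 and the a-factor receptor gene STE3 read 11.10 to 13.10. The 7 markers of MATa cells read 1.04 to 6.64, where background was 3.69 to 4.43 on the log2 scale. ASG7 was at or below background on 4 of the 5 arrays. The median level of the 7 markers over all 13 arrays was 6.13, so as a group they were not at background.

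No gene passed an adjusted p of 0.05 in ΔtH(GUG)G1. Among 5446 genes tested with limma and Benjamini-Hochberg adjustment, 0 were called higher and 0 lower (0% called), and the smallest adjusted p was 1.0. At an unadjusted limma p under 0.05 there were 60 higher and 35 lower genes, 1.74% of those tested. The 2 deletion arrays lay above all 3 wild-type arrays for 280 genes (5.14%) and below them for 243 genes (4.46%). Over all genes the median difference was -0.01 with an SD of 0.25, and it was 0.151 over the 3992 brighter genes, whose log2 signal averaged more than 8 across the series. The difference between a single wild-type array and the mean of the other 2, which averages over fewer arrays, had an SD of 0.303 to 0.38 over those brighter genes. The differences given below are therefore measured values with their standard errors, none of which was called.

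POX1, whose coding gene is the nearest annotated one on the left of the deleted tRNA gene, had the largest difference among the measured neighbours. It encodes the acyl-CoA oxidase that opens fatty acid β-oxidation in the peroxisome, and it is weakly expressed in glucose medium. The log2 signal of POX1 was 5.90 and 5.70 on deletion arrays 1 and 2, against 3.83, 4.51 and 4.67 on the wild-type arrays. Both deletion arrays lay above every other array of the series, where the remaining 11 ran from 3.78 to 5.34 with a median of 4.40. The difference of POX1 from the wild type was 1.46 ± 0.435, or 2.75-fold, with an unadjusted limma p of 0.00757 and an adjusted p of 1.0. Here and below ± gives the SE of the limma fit, which compares 2 with 3 arrays and takes its spread from all 13. A two-sided exact permutation test of the 5 arrays gave p = 0.2, the smallest that 2 against 3 arrays allow. The POX1 signal was close to background in the wild type, where array 1 was below it, while both deletion arrays exceeded their backgrounds of 4.43 and 3.69 on the log2 scale. With signals under the background of their array raised to it, the ratio for POX1 was 2.65-fold. Adding 16 to every signal before the log lowered the POX1 difference to 0.97, which is under 2-fold. The study's supplementary note also lists this gene with a rise of less than 2-fold in the strain.

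The other 9 measured neighbours had smaller differences. On the left, beyond POX1, lie CHC1, the clathrin heavy chain, SPT16, a subunit of the histone chaperone FACT, SIP2, a subunit of the Snf1 kinase complex, and MIG2, a repressor of glucose-repressed genes. Their differences were -0.09 for CHC1, 0.02 for SPT16, 0.10 for SIP2 and 0.54 ± 0.329 for MIG2. The MIG2 arrays of the 2 strains overlapped, since wild-type array 1 read 7.99 and deletion array 1 read 7.94. On the right, YGL204C had no probe set of its own, and the next measured genes were KEX1, a carboxypeptidase of the secretory pathway, ARO8, an aromatic aminotransferase, MCM6, a subunit of the replicative helicase, EMP24, a cargo receptor between the endoplasmic reticulum and the Golgi, and YIP4, a membrane protein that binds Rab GTPases. Their differences ran from -0.19 for EMP24 to 0.06 for KEX1. EMP24 was the only one of these 5 genes whose arrays did not overlap, with 11.96 and 11.84 on the deletion arrays and 12.05 to 12.11 on the wild-type arrays, and its limma adjusted p was 1.0.

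**Figure D1:**
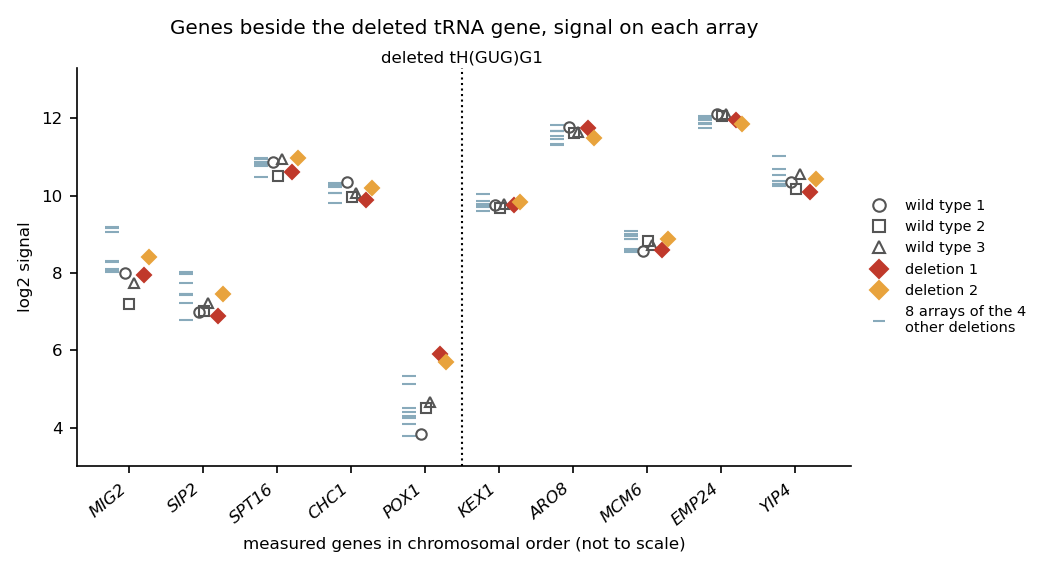
Log2 signal (vertical axis) of the 10 measured genes nearest to tH(GUG)G1 in chromosomal order (horizontal axis, not to scale), with each wild-type array as an open symbol, each deletion array as a diamond and the 8 arrays of the 4 other deletions as dashes. Both deletion arrays of POX1 lie above its other 11 arrays, while EMP24, at 11.96 and 11.84, is the only other gene whose deletion arrays do not overlap its wild-type arrays.

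The genes that serve the histidine tRNA did not stand apart. HTS1 encodes the histidyl-tRNA synthetase, THG1 the enzyme that adds the extra guanosine at the front end of histidine tRNA, HIP1 the high-affinity histidine permease, and HIS1 to HIS7 the enzymes that make histidine. The differences of these 10 genes ran from -0.15 to 0.08, and each was smaller than its standard error. HTS1 read 11.82 and 11.94 on the deletion arrays and 11.71 to 11.88 on the wild-type arrays, a difference of 0.08 ± 0.138. THG1 read 11.41 and 11.25 against 11.01 to 11.69, and HIP1 read 10.22 and 10.21 against 9.97 to 10.40. In each of these 3 genes the deletion arrays overlapped the wild-type range.

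The biosynthesis genes showed the gap between the 2 deletion arrays more than any common difference from the wild type. HIS5, the histidinol-phosphate aminotransferase, read 11.43 on array 1 and 10.17 on array 2, against 10.73, 11.16 and 10.42 in the wild type. HIS4, which encodes a multifunctional enzyme of the pathway, read 12.11 and 11.27 against 12.14, 11.99 and 11.40, and HIS3 read 12.22 and 11.48 against 11.89, 12.10 and 11.74. For these 3 genes array 1 lay at or above the middle of the wild-type values and array 2 below all of them. HIS3 is also carried in the can1Δ::MFA1pr-HIS3 insertion of the background, and the share of its signal from that copy was not tested. HIS6 and HIS7 were steadier, with gaps between the deletion arrays of 0.02 and 0.12. The median of the 7 HIS genes was 0.27 on array 1 and -0.23 on array 2 relative to the wild-type mean.

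RNA polymerase III subunits were the group closest to the deleted gene's own transcription that leaned one way. The difference was positive for 10 of 10 subunits, where 48.3% of all genes had a positive difference, and the median was 0.16. On deletion arrays 1 and 2 taken singly, 9 and 8 of the 10 were above the wild-type mean, beside 2371 and 3225 of all 5446 genes. The median of the subunits was 0.24 on deletion array 1 and 0.12 on array 2, against 0.11, -0.03 and -0.06 on wild-type arrays 1 to 3. RPC82 read 10.49 and 10.48 against 10.29, 9.91 and 10.14, RPC34 read 10.35 and 10.65 against 10.18, 10.32 and 10.19, and RPC25 read 10.28 and 10.18 against 10.03, 9.99 and 9.79. These were the 3 of 10 subunits (30.0%) whose deletion arrays lay above all wild-type arrays, beside 5.14% of all genes. Their differences were 0.37 ± 0.16 for RPC82, 0.27 ± 0.142 for RPC34 and 0.29 ± 0.134 for RPC25. The largest subunits RPO31 and RET1 differed by 0.13 and 0.18, RPC53 by 0.28, and RPC37, RPC31, RPC17 and RPC11 by 0.03 to 0.15. Each of RPC37, RPC31, RPC17 and RPC11 changed sign when some single array was left out. No subunit was called by limma at an adjusted p of 0.05.

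The other polymerases and the polymerase III factors gave a scale for this shift. The 9 subunits of RNA polymerase I or shared between polymerases I and III had a median of 0.10, with 9 of 9 positive, and RPC19, shared by both, differed by 0.16 and RPA43 by 0.14. The 7 subunits of RNA polymerase II had a median of -0.04, with 0 of 7 positive. That median was 0.009 without wild-type array 2 and -0.02 without deletion array 1 or 2. TFIIIA, TFIIIB, TFIIIC and the repressor Maf1, which place polymerase III on its genes or hold it off, comprised 11 genes with differences of -0.13 to 0.12, each under its standard error, and 5 of 11 were positive. Wild-type array 1 had medians of 0.18 for the polymerase I group and 0.08 for the factors, beside 0.17 and 0.10 on the higher deletion array. The polymerase I median ranged from 0.04 without deletion array 1 to 0.20 without wild-type array 1, and it was 0.05 without wild-type array 2 or 3 and 0.17 without deletion array 2.

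Ribosome biogenesis was a large group that leaned one way. It holds the factors that process ribosomal RNA and assemble both subunits in the nucleolus. Of 157 factors 148 had a positive difference, with a median of 0.21, equal to 1.15-fold. Both deletion arrays lay above the 3 wild-type arrays for 35 of them (22.3%) and below for 0, where all genes gave 5.14% and 4.46%. ACL4, the chaperone of ribosomal protein Rpl4, read 10.91 and 10.90 against 10.67, 10.49 and 10.64. UTP25 of the small subunit processome read 10.93 and 11.00 against 10.76, 10.44 and 10.61. NOP9, needed for 18S rRNA, read 10.75 and 10.54 against 10.43, 10.27 and 10.31, and NOP53, a factor of the large subunit, read 11.15 and 11.12 against 10.88, 10.74 and 10.79. These 4 genes differed by 0.31 to 0.36 with non-overlapping arrays, and each had a limma adjusted p of 1.0.

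The wild-type arrays differed among themselves in this group. The median of the ribosome biogenesis factors was 0.25 and 0.13 on the deletion arrays, and 0.21, -0.10 and -0.09 on wild-type arrays 1 to 3, so wild-type array 1 lay between the deletion arrays. Without wild-type array 1 the median difference was 0.30, and without deletion array 1 it was 0.13. Against ΔtR(UCU)M2, in a comparison that uses the same 2 ΔtH(GUG)G1 arrays, the median was 0.08, with 126 of 157 factors higher in ΔtH(GUG)G1, where 3185 of all 5446 genes were higher.

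Ribosomal proteins, which are regulated together with ribosome biogenesis in many conditions, did not share its shift. The 127 cytosolic ribosomal protein genes measured had a median of -0.01. Their deletion arrays lay above all wild-type arrays for 0 genes and below for 0, beside 5.14% and 4.46% of all genes. Their median was 0.17 on deletion array 1, where 124 of 127 were above the wild-type mean, and -0.21 on array 2, where 4 of 127 were. Deletion array 1 exceeded array 2 for 126 of the 127 genes, where this held for 40.7% of all genes. The wild-type arrays spanned the same range, with medians of -0.19, 0.18 and 0.01.

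**Figure D2:**
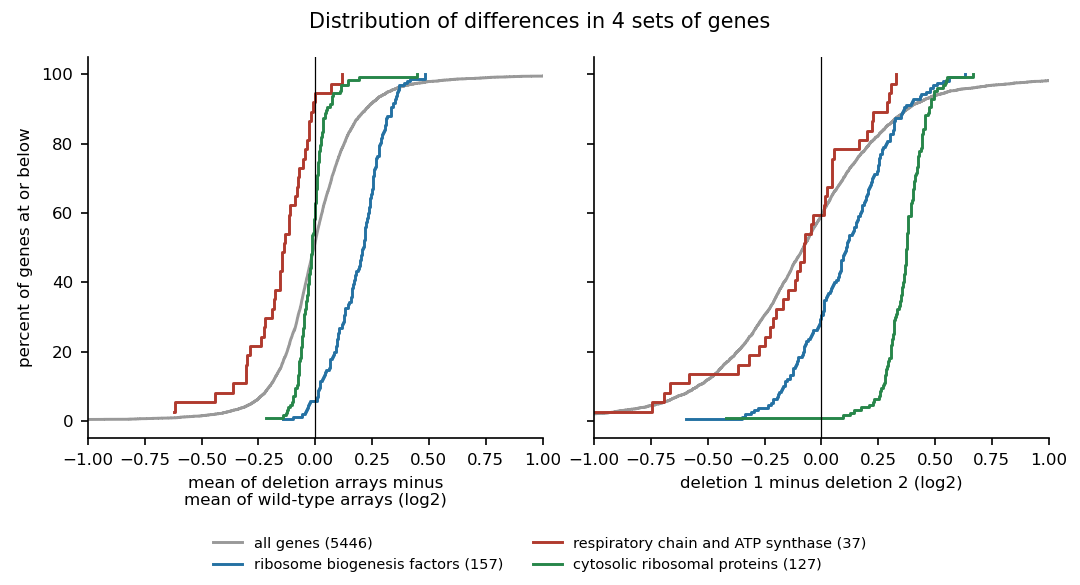
Cumulative percent of genes (vertical axis) at or below a log2 difference (horizontal axis, drawn from -1 to 1) for all 5446 genes, 157 ribosome biogenesis factors, 37 respiratory chain genes and 127 cytosolic ribosomal protein genes, for the deletion mean minus the wild-type mean (left) and for deletion array 1 minus array 2 (right). The ribosome biogenesis curve is displaced to the right by a median of 0.21 on the left, while the ribosomal proteins sit at -0.01 there and at 0.37 on the right.

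Enzymes that process and modify tRNA were slightly higher. Of 79 measured, 69 had a positive difference and the median was 0.11, with medians of 0.12 and 0.13 on the deletion arrays. Wild-type array 1 had the same median, 0.13, and wild-type arrays 2 and 3 had -0.10 and -0.07, so without wild-type array 1 the median difference was 0.18. In 11 genes (13.9%) both deletion arrays lay above the wild type, and in 0 below, beside 5.14% and 4.46% of all genes. TRM13, a tRNA 2′-O-methyltransferase, read 8.81 and 9.02 against 8.57, 8.30 and 8.62, and MOD5, which attaches an isopentenyl group beside the anticodon, read 8.68 and 8.64 against 8.23, 8.48 and 8.19. The pseudouridine synthases PUS9 and PUS4 differed by 0.32 and 0.20, both without overlap. All of these had a limma adjusted p of 1.0.

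Aminoacyl-tRNA synthetases as a group had smaller differences. The 21 cytosolic enzymes had a median of 0.05, with 17 of 21 positive, and wild-type array 1 had the highest median of the 5 arrays at 0.08. Without deletion array 1 the median difference of these enzymes was 0.006. The prolyl enzyme YHR020W, the isoleucyl enzyme ILS1, the phenylalanyl subunit FRS2 and the methionyl enzyme MES1 differed by 0.12, 0.08, 0.09 and 0.08, with overlapping arrays. The 14 mitochondrial enzymes had a median of -0.06, from -0.25 on deletion array 1 to 0.13 on array 2. The 11 genes of the Gcn2 and Gcn4 control circuit had a median of 0.06, with 8 of 11 positive. That median was 0.01 without deletion array 2 and 0.12 without wild-type array 1, which itself stood at 0.15.

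Genes of the respiratory chain and ATP synthase lay lower. Of 37 genes 2 had a positive difference and the median was -0.14, equal to 1.10-fold lower. Both deletion arrays were below all wild-type arrays in 5 genes (13.5%), where this held for 4.46% of all genes. QCR7, a subunit of complex III, read 11.50 and 11.45 against 11.61, 11.84 and 11.90, NDI1, the internal NADH dehydrogenase, read 6.23 and 6.21 against 6.40, 7.07 and 7.04, and ATP16, a subunit of the ATP synthase rotor, read 11.65 and 11.59 against 11.67, 12.01 and 11.89. COX5B, the hypoxic form of a cytochrome c oxidase subunit, differed by -0.62 ± 0.431 with overlapping arrays. In all 4 of these genes wild-type array 1 was the lowest wild-type array and close to the deletion arrays. The median of the group was -0.27 on that array, below the -0.17 and -0.08 of the deletion arrays, against 0.14 and 0.16 on wild-type arrays 2 and 3. The median difference was -0.05 without wild-type array 3, -0.25 without wild-type array 1 and -0.08 without deletion array 1. The 73 mitochondrial ribosomal protein genes had a median of -0.08, with 19 positive, and ran from -0.16 to 0.09 on the wild-type arrays. Their medians were -0.10 on deletion array 1, with 9 of 73 positive, and 0.005 on array 2, with 39 of 73 positive.

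Both deletion medians lay outside the range of the 3 wild-type medians on the same side in 3 of the 49 groups examined, which were the polymerase III subunits, the haploid-specific genes and the hexose transporters. Of the 10 ways to take 2 of 5 arrays, a share of 0.2 sets both on one side of the other 3. The 3 of 49 groups are fewer than that share, so this count does not set them apart. The haploid-specific genes, most of which serve pheromone signalling and mating, had medians of 0.25 and 0.12 against 0.01, 0.11 and -0.15. Their median difference of 0.14 was 0.25 without deletion array 2 and 0.09 without wild-type array 3. FAR1, the pheromone-dependent cell cycle inhibitor, read 10.13 and 9.92 against 9.38, 9.87 and 9.43, and GPA1, the G protein α subunit of that pathway, read 10.73 and 10.55 against 10.50, 10.49 and 10.28. AGA1, the anchor of the a-agglutinin, differed by 0.53 ± 0.45 with overlapping arrays. The α-cell markers, a different set of mating genes, had a median of 0.65 on array 1 and 0.05 on array 2. Wild-type array 2 had 0.43 for this set. These 4 markers include MF(ALPHA)1, which is deleted in the strain background and whose signal differed 3.33-fold between the deletion arrays. The hexose transporters and sensors had medians of -0.32 and -0.13 against -0.06, 0.18 and 0.05, and 4 of 18 (22.2%) lay below all wild-type arrays, beside 4.46% of all genes. Their median difference of -0.18 was -0.32 without deletion array 2 and -0.03 without wild-type array 3. HXT8, HXT13 and HXT14 among them were at or below background on all 5 arrays, and the high-affinity transporter HXT7 differed by -0.79 ± 0.581 with overlapping arrays.

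The proteasome and autophagy genes, which take part in protein and organelle turnover, were slightly lower. The 35 proteasome genes had a median of -0.06, with 28 of them negative, and 5 (14.3%) lay below all wild-type arrays and 1 above, beside 4.46% and 5.14% of all genes. Without deletion array 1 the median was -0.01, as it was without wild-type array 3. PUP2 and PRE10, subunits of the core particle, differed by -0.24 and -0.20, the assembly chaperone gene UMP1 by -0.17 and the regulatory particle subunit RPN12 by -0.15. Their deletion arrays did not overlap the wild-type arrays, with standard errors of 0.101 to 0.116. Of 34 measured ATG genes 10 had a positive difference and the median was -0.08. ATG2 read 6.41 and 6.61 against 7.37, 6.72 and 7.23, the kinase gene ATG1 read 5.57 and 6.45 against 6.59, 6.44 and 6.74, and ATG9 read 6.13 and 6.30 against 6.65, 6.67 and 6.72. ATG1 overlapped the wild type by a small margin, while ATG2 and ATG9 did not. The medians of the ATG group were -0.18 and 0.03 on the deletion arrays, and -0.14 to 0.09 on the wild-type arrays, so without deletion array 1 the median difference was 0.03.

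**Figure D3:**
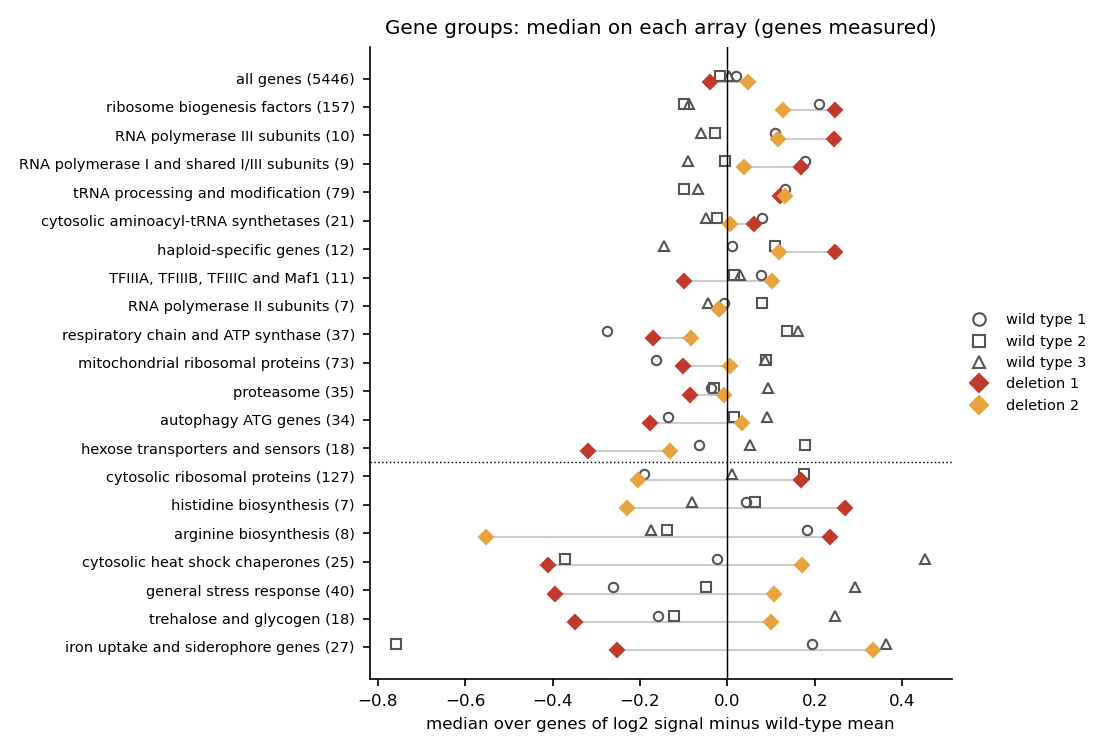
Median over the genes of a group of the log2 signal minus the wild-type mean (horizontal axis), for each of the 3 wild-type arrays (open symbols) and the 2 deletion arrays (diamonds, joined by a line). The dotted line sets off the last 7 groups, each with medians of opposite sign on the 2 deletion arrays, such as arginine biosynthesis at 0.23 and -0.55. Above the line, ribosome biogenesis lies at 0.25 and 0.13, but some groups there also have opposite signs, such as the ATG genes at -0.18 and 0.03.

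Among the brighter genes, HAP4 had the largest difference without overlap. HAP4, the activating subunit of the complex that switches on respiratory genes, read 9.07 and 8.42 on the deletion arrays and 7.38, 8.16 and 8.20 on the wild-type arrays. Its difference was 0.83 ± 0.353, or 1.78-fold, with an unadjusted limma p of 0.0408 and an adjusted p of 1.0. YGL039W, an aldehyde reductase gene, read 9.98 and 9.92 against 9.47, 9.39 and 9.09, a difference of 0.63 ± 0.142 or 1.55-fold. IMD2, an inosine monophosphate dehydrogenase of GTP synthesis, read 9.34 and 9.02 against 8.63, 8.81 and 8.30. The gap between the 2 deletion arrays was 0.65 for HAP4, 0.06 for YGL039W and 0.32 for IMD2.

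The 10 leading higher genes included 3 of mating. FUS1, needed for cell fusion, read 9.90 and 9.54 against 9.11, 9.46 and 8.89, KAR4, a transcription factor of the pheromone response, read 9.87 and 9.60 against 9.30, 9.25 and 9.04, and FIG2, a wall protein induced by pheromone, read 8.63 and 8.33 against 8.30, 8.11 and 7.59. ESF1, a factor for 18S rRNA, differed by 0.48 ± 0.193. YML018C, YML108W and YGR035C differed by 0.54, 0.49 and 0.48. YGR035C had one of the tightest sets of values, with 9.10 and 9.14 against 8.59, 8.66 and 8.67.

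DIP5 had the largest difference among the lower genes without overlap. DIP5, the permease for glutamate and aspartate, read 9.00 and 9.54 against 10.21, 9.96 and 9.86, a difference of -0.74 ± 0.35, or 1.67-fold lower. PDS1, the securin that restrains chromosome separation, read 7.95 and 8.23 against 8.59, 8.54 and 8.64, a difference of -0.50 ± 0.121 with an unadjusted limma p of 0.00223 and an adjusted p of 1.0. MIT1, a regulator of filamentous growth, differed by -0.54 ± 0.24 and BTN2, which sorts misfolded proteins, by -0.51 ± 0.498. The BTN2 value turned on wild-type array 3, which read 9.45 where the other 4 arrays read 8.10 to 8.33.

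Regulators of the G1 and S phases were among the other lower genes. YOX1, a repressor of genes of early G1, read 8.87 and 9.17 against 9.45, 9.43 and 9.32, and the S phase cyclin CLB6 read 8.79 and 8.73 against 9.04, 9.39 and 8.95. From the cyclin group, CLB5 read 8.57 and 8.84 against 9.08, 8.93 and 9.04, PCL1 read 8.75 and 8.81 against 9.04, 9.07 and 9.19, and CLN1 differed by -0.26 with overlapping arrays. The group of 15 as a whole had a median of -0.00, with 7 positive, 3 (20.0%) below all wild-type arrays and 1 above, beside 4.46% and 5.14% of all genes. KGD4, a subunit of the α-ketoglutarate dehydrogenase, differed by -0.41, SPO24, a small gene of sporulation, by -0.41, FUN14 of the mitochondrial outer membrane by -0.37 and RIP1, the Rieske protein of complex III, by -0.36.

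**Figure D4:**
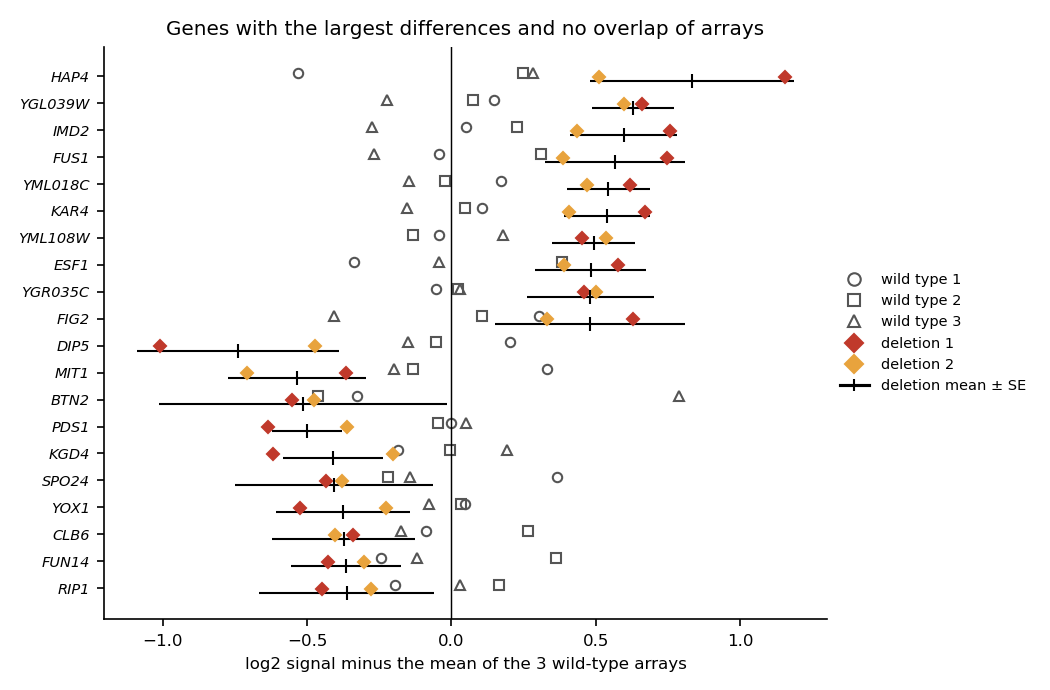
Log2 signal minus the mean of the 3 wild-type arrays (horizontal axis) for the 10 leading higher and 10 leading lower genes chosen for non-overlapping arrays and a mean log2 signal over 8, with each array as a symbol and the deletion mean ± SE of the limma fit as a bar. The differences run from 0.83 for HAP4 to -0.74 for DIP5, and the gap between the 2 deletion arrays is wide for HAP4 and DIP5 and narrow for YGL039W and YGR035C.

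The 2 deletion arrays disagreed with each other over many genes. The SD over all genes of array 1 minus array 2 was 0.475, and it was 0.342 for the 3992 brighter genes, where the SD of the strain mean against the wild type was 0.151. Of all genes 212 differed by more than 2-fold between the arrays, 52 of them among the brighter genes, while the strain mean was over 2-fold above the wild type for 28 genes and below it for 23, and 1 of these was among the brighter genes. A mean over several arrays varies less than a single array does, so these counts are not on an equal footing. This disagreement was not particular to the strain in size. Over the brighter genes the SD between replicate arrays was 0.343 to 0.434 in the wild type and 0.221 to 0.373 in the other 4 deletions, with 0.335 in ΔtR(UCU)M2. Of the 49 gene groups 29 had medians of opposite sign on the 2 deletion arrays.

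The 10 genes by which array 2 most exceeded array 1 included 4 of chaperones and 2 of iron retention. HSP82, a form of the chaperone Hsp90, read 7.48 on array 1 and 10.14 on array 2, a 6.31-fold gap, and 9.87, 7.79 and 10.93 on the wild-type arrays. SSA1 of the Hsp70 family read 9.86 and 11.52, its co-chaperone gene STI1 read 9.77 and 11.25, and the small heat shock protein gene HSP26 read 6.45 and 8.41. The heat shock chaperone group of 25 genes is mainly cytosolic but also holds mitochondrial chaperones such as HSP60 and the regulator gene HSF1. It had a median of -0.41 on array 1 and 0.17 on array 2, and -0.02, -0.37 and 0.45 on the wild-type arrays. FIT3 and FIT2, wall mannoproteins that retain siderophore iron, read 7.03 and 8.08 on array 1 and 9.59 and 10.42 on array 2. The 27 iron uptake genes had medians of -0.25 and 0.33, within the wild-type range of -0.76 to 0.36. HXK1, a hexokinase, differed by -1.95 between the arrays, GRE2, a methylglyoxal reductase, by -1.58, YNL193W by -1.36 and ALD6, an acetaldehyde dehydrogenase, by -1.33.

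The 10 genes by which array 1 most exceeded array 2 had various roles. GCV1 of the glycine cleavage system read 10.68 on array 1 and 8.78 on array 2, a 3.72-fold gap, and 10.18, 10.73 and 9.79 on the wild-type arrays. GCV2 of the same system read 10.83 and 9.59, the arginine biosynthesis gene ARG1 read 12.47 and 11.30, and HIS5 was given above. PHO89, a sodium and phosphate cotransporter, differed by 1.86, ADE17 of purine synthesis by 1.66, ZRT1, a zinc transporter, by 1.59, SNZ1 of vitamin B6 synthesis by 1.49, the calmodulin-dependent kinase gene CMK2 by 1.17, and YOR302W, the short upstream reading frame of CPA1, by 1.43. The 8 arginine biosynthesis genes had medians of 0.23 and -0.55, the widest split of the groups described here. Array 2 lay below the lowest of the wild-type medians, which were 0.18, -0.14 and -0.18.

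The gap between the deletion arrays resembled the gap between wild-type arrays 2 and 3. Over all genes deletion array 1 correlated best with wild-type array 2 (Pearson's r = 0.982) and deletion array 2 with wild-type array 3 (r = 0.986). Across the 3992 brighter genes, array 1 minus array 2 of the deletion had r = 0.68 and Spearman's rho = 0.66 with wild type 2 minus wild type 3, and 74.2% of these genes had the same sign. The r was -0.36 with wild type 1 minus 2 and 0.34 with wild type 1 minus 3, and over all 5446 genes the r with wild type 2 minus 3 was 0.48. With array 1 minus array 2 of ΔtR(UCU)M2 it was 0.67. These correlations are across genes, which are not independent, no array enters both sides, and the pair of wild-type arrays was singled out after its correlation had been seen. Of the 20 genes with the largest gaps, 20 had the same sign in wild type 2 minus 3 and 19 in ΔtR(UCU)M2, with HXK1 the exception. Of the 49 gene groups 39 had a median gap of the same sign in wild type 2 minus 3, among them each of the 24 whose gap exceeded 0.2 in size. A shared batch of deletion and wild-type arrays is not named in the labels and was not tested.

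**Figure D5:**
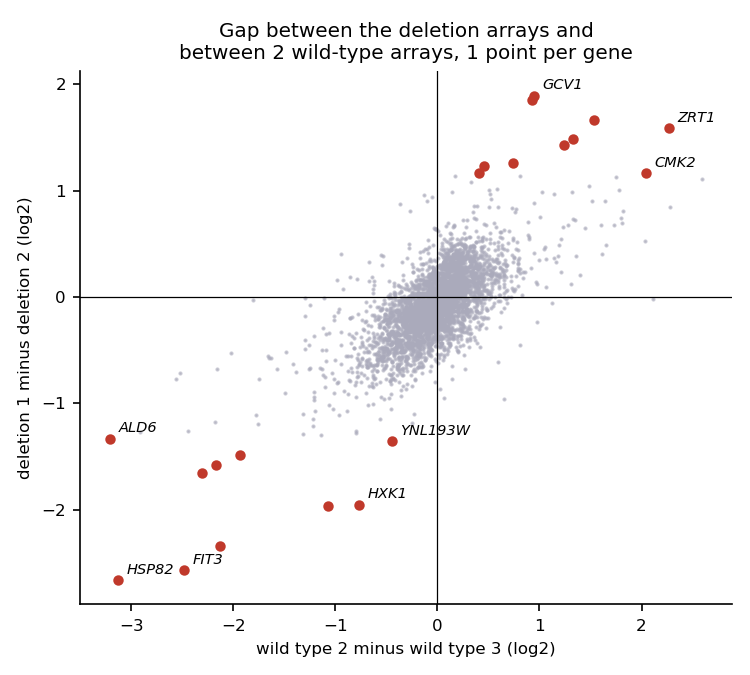
Deletion array 1 minus deletion array 2 (vertical axis, log2) against wild type 2 minus wild type 3 (horizontal axis, log2), 1 point for each of the 3992 brighter genes, with the 20 genes of largest gap in red. The points lie along a rising diagonal (r = 0.68), from HSP82 at -2.66 and -3.13 to ZRT1 at 1.59 and 2.26.

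Each deletion array was then set against its nearest wild-type array, which gives 2 differences that share no array. Over the brighter genes the SD was 0.271 for array 1 minus wild type 2 and 0.226 for array 2 minus wild type 3. Genes over 2-fold numbered 21 and 7. The SD between the deletion arrays was 0.342. Each wild-type array was picked for its correlation with the deletion array, which favours a small SD, so these SDs cannot show closeness. The 2 differences had r = 0.28 across the brighter genes and r = 0.16 across all genes, with the same sign for 58.9% of the brighter genes. Ribosome biogenesis had medians of 0.37 and 0.24 in these 2 differences, with 155 and 142 of 157 factors positive, against medians over all genes of -0.03 and 0.04. The polymerase III subunits had 0.24 and 0.26, tRNA processing enzymes 0.20 and 0.18, and the respiratory chain -0.27 and -0.27, with 3 and 0 of 37 genes positive. Wild-type array 1, which this choice leaves out, had medians for these groups on the same side of the wild-type mean as the deletion arrays.

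The groups that had split between the deletion arrays did not all come together in this comparison. Cytosolic ribosomal proteins had medians of 0.00 and -0.23, heat shock chaperones -0.01 and -0.26, general stress genes -0.35 and -0.18, and trehalose and glycogen genes -0.25 and -0.14. Arginine biosynthesis stayed split at 0.37 and -0.44, and the HIS genes at 0.12 and -0.14. POX1 had 1.39 and 1.02, and HAP4 had 0.91 and 0.23. Since wild-type array 1 is left out here, the mean of the 2 differences equals the deletion mean minus the mean of wild-type arrays 2 and 3.

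ΔtH(GUG)G1 was also compared directly with ΔtR(UCU)M2, the other strain of the MC group. The same 2 ΔtH(GUG)G1 arrays enter this comparison and the one with the wild type. Of 5446 genes 0 passed an adjusted limma p of 0.05 (0% called) and 46 had an unadjusted p under 0.05, 27 higher and 19 lower. POX1 was higher in ΔtH(GUG)G1 by 1.47 ± 0.476, with an adjusted p of 1.0. Ribosomal proteins had a median of -0.16, with 8 of 127 positive, iron uptake genes 0.31, with 23 of 27 positive, and respiratory chain genes -0.12, with 5 of 37 positive. Polymerase III subunits had a median of 0.06, with 9 of 10 positive. The median over all genes was 0.03, with 3185 of 5446 positive. Between the 2 ΔtH(GUG)G1 arrays the median gap was 0.37 for ribosomal proteins and -0.43 for iron uptake genes. Both gaps were larger in size than the medians of the strain comparison. A difference that misses the threshold with 2 arrays a strain does not show that the strains are alike.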

How the data were processed

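Expression was measured on Affymetrix yeast 2.0 arrays, 13 in all, and GEO titles gave the strain and replicate number of each. According to the methods of the study, the authors used RMA for background and brought the arrays to a shared distribution; the submitters' processing notes name GCRMA with no version. For every probe set the authors deposited an intensity that is linear, not logged. Their trimmed mean (2% removed at each end) was the same on every array. The batch of each array and the genome build behind the probe annotation are not given in the sources used here. The median signal of the genes differed between arrays, and a fixed trimmed mean on a linear scale is a feature of global scaling, so which normalization made these values is not settled. This matters most for signals near background.

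Of 10928 probe sets, 5495 pair with exactly 1 protein-coding gene and measure 5446 genes; for 47 genes with several probe sets the brightest was used. No gene was filtered out. The log2 of each intensity was fitted with limma 3.58.1 in R 4.3.3, with 1 mean per strain over all 13 arrays, so the spread is shared between strains, and p-values were adjusted by Benjamini-Hochberg over all genes. The fit was tested on simulated data. Permutation tests used scipy 1.17.1. The number of arrays limits the precision, and p-values measure only the spread between these arrays. The study set each strain against the wild type of its batch, which could not be rebuilt from the labels, so the mean of the 3 wild-type arrays was used.

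The members and the 49 gene lists were chosen with earlier results of these data known. Named genes are, with a mean log2 signal over 8, up to 10 in each direction with the largest difference and non-overlapping arrays, and up to 10 in each direction with the largest gap between the deletion arrays. To these were added the 5 measured genes on each side of tH(GUG)G1, the histidine tRNA, polymerase III and genotype genes, and, from each other list, up to 4 genes of lowest p in the direction most of its genes took. Not every list is named gene by gene. Neighbour order and symbols came from the RefSeq table of assembly R64, where the deleted gene was located as the tRNA entry beside YGL205W. Genes beside the other tH(GUG) copies and genes rich in histidine codons were planned but not analysed here, for want of an annotation and of protein sequences. The primer sequences came from the study's supplementary table, and their strand was not checked against a genome. Alternatives were median centring, quantile normalization, an offset of 16 before the log, bright genes alone, averaging the probe sets of 1 gene, a robust prior with a trend, only the 5 arrays compared, the replicate number or an inferred batch as a block, the nearest wild-type array as the control, and leaving out each array in turn.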

Additional observations from a re-analysis of the deposited data

How the results depend on the processing

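With limma, 0 genes were called in either direction of either comparison under every alternative but 1. Without deletion replicate 2, 1 gene was lower than in the wild type and 1 lower than in ΔtR(UCU)M2, so both counts of lower genes ran from 0 to 1 over the arrays left out. The gene lower than the wild type, BUD25, at -4.13, was chosen after its value was seen. That value rests on deletion array 1 alone, and with both deletion arrays BUD25 was not called. Genes with an unadjusted limma p under 0.05 numbered 95 as reported, 109 with the replicate block and 458 with the inferred batch as a block. They numbered 221 without wild-type replicate 1, 59 without wild-type replicate 3 and 58 among bright genes. The inferred batch of an array was the wild-type array it correlated with best in these same data. Such a choice favours a small residual spread, so the count of 458 cannot show that more genes changed. The replicate numbers share no stated batch, and array 1 minus 2 of the deletion had r = -0.36 across bright genes with the same difference in the wild type, so the replicate block is given here only; it added no call. Of the 86 named genes whose difference from the wild type was refitted, none had a limma adjusted p under 0.569 in any of these fits.

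The SD between the deletion arrays was 0.358 with the offset and 0.342 for bright genes. With each array against its nearest wild-type array, the same as leaving out wild-type replicate 1, medians were 0.30 for ribosome biogenesis, 0.197 for the polymerase I group, -0.0705 for polymerase II, 0.185 for tRNA processing, 0.12 for aromatic amino acids, 0.14 for sulfur, -0.25 for the respiratory chain, 0.22 for phosphate genes, 0.0606 for cyclins and 0.0299 for vitamin genes. Median centring gave -0.0249 for polymerase II and 0.13 for tRNA processing, and quantile normalization -0.0280 for polymerase II. Among bright genes sulfur was 0.0470 and the PAU family 0.0712, and with the mean of probe sets PAU was 0.12. Leaving out each array gave 0.13 to 0.30 for ribosome biogenesis, 0.0387 to 0.197 for the polymerase I group, -0.0705 to 0.00865 for polymerase II, 0.00641 to 0.0662 for cytosolic synthetases, 0.0926 to 0.185 for tRNA processing, -0.250 to -0.0469 for the respiratory chain, -0.132 to 0.00486 for mitochondrial ribosomal proteins, 0.0881 to 0.247 for haploid-specific genes, -0.320 to -0.0330 for hexose transporters, -0.0934 to 0.0606 for cyclins, 0.0161 to 0.152 for PAU, -0.0563 to 0.0306 for vitamin genes, -0.224 to 0.0407 for MATa markers, -0.22 to 0.14 for sulfur, -0.271 to -0.0162 for permeases, 0.00533 to 0.121 for aromatic amino acids and -0.0393 to 0.218 for phosphate genes.

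Small differences changed sign. HIS5 was -0.0133 under quantile normalization, -0.15 with the replicate block and -0.0120 with the inferred batch; with the replicate block YIP4 was 0.00421 and RPC31 -0.0108; with the inferred batch CHC1 was 0.00110 and HIS2 0.0266; and against the nearest wild-type arrays CHC1 was 0.0224 and MCM6 -0.0332. Leaving out each array gave -0.25 to 0.0744 for CHC1, -0.27 to 0.0706 for YIP4, -0.16 to 0.20 for SPT16, -0.19 to 0.38 for SIP2, -0.18 to 0.0667 for ARO8, -0.10 to 0.18 for MCM6, -0.23 to 0.11 for THG1, -0.23 to 0.33 for HIS1, -0.15 to 0.0771 for HIS2, -0.43 to 0.31 for HIS3, -0.58 to 0.27 for HIS4, -0.61 to 0.66 for HIS5, -0.0916 to 0.14 for RPC37, -0.0108 to 0.28 for RPC31, -0.0586 to 0.355 for RPC17, -0.00802 to 0.15 for RPC11, -1.80 to 0.15 for HXK1, -0.72 to 0.44 for ARG1, -0.98 to 0.25 for GCV2 and -1.45 to 0.44 for GCV1. The other named genes that were refitted under the alternatives kept the sign of their difference from the wild type in each.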
